A study of Mus musculus with 4 samples.

Results

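The 38 mouse miRNA names from miR-686 to miR-721 on this array were examined in embryonic stem cells after knockdown of Lin28a. They were chosen by name alone, as every mouse name with a number in that range and any arm or star suffix, and they make up 38 of the 577 names on the array. Between them they carry 35 of the 36 numbers, since no probe set was named for miR-716. The cells were A3-1, a line of cultured mouse embryonic stem cells grown with LIF, a cytokine that holds such cells undifferentiated. The control group received an siRNA against GFP, a jellyfish gene, and is called siGFP. The other group received an siRNA against Lin28a and is called siLin28a. RNA was taken 48 h later, 100 ng of it was labelled with Cy3, and each of 2 replicates per group was hybridised to 1 single-colour array. Nothing in the labels says that the replicates came from separate cultures, so a p-value here reflects the spread between the arrays of a group, which may be technical. The knockdown itself cannot be read from a miRNA array. let-7a, a miRNA whose precursor LIN28A is known to hold back, had total gene signals of 10.5 and 9.59 in siGFP replicates 1 and 2, and of 78.1 and 78.3 in the siLin28a replicates. Values are given in that order throughout.

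MicroRNAs are short RNAs cut from hairpin precursors by the nucleases Drosha and Dicer. One strand is loaded into an Argonaute protein, and the bases next to its 5′ end, the seed, pair with target mRNAs. LIN28A binds the loop of let-7 precursors, where a GGAG motif is part of the contact, and blocks their maturation. These numbers were largely given together to short RNAs cloned from mouse embryos. Several of these names are doubtful as miRNAs. miR-720 is known as a fragment of a transfer RNA, miR-712 has been traced to the spacer of the ribosomal RNA precursor, and miR-706 has the sequence of the end of a B1 repeat, a common short interspersed element of the mouse genome. miR-708, in contrast, is an accepted miRNA with a conserved hairpin.

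RefSeq mature sequences (build GRCm38.p6) were found for 24 of the 38 names, 9 of them among the 16 that were bright enough to be tested. Those 9 are shown first because the results turn on them, and miR-708 and miR-718 follow because they were detected on some arrays only. Capitals mark the seed, bases 2 to 8, and each is written 5′ to 3′.
miR-721: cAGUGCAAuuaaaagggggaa
miR-705: gGUGGGAGguggggugggca
miR-690: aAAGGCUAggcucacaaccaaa
miR-706: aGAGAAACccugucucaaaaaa
miR-710: cCAAGUCUuggggagaguugag
miR-711: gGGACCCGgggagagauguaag
miR-697: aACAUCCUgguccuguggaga
miR-686: aUUGCUUCccagacggugaaga
miR-703: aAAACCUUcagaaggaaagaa
miR-708: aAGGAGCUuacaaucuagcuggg
miR-718: cUUCCGCCcggccgggugucg

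No seed occurred in more than 1 of the 24 sequences. The seed of miR-721 is that of the miR-130 and miR-301 family, and 6 other mouse mature sequences in the table carry it, among them miR-130a-3p, miR-130b-3p and miR-301a-3p. The seed of miR-708 is shared with miR-28a-5p. The seed of miR-705 is shared with 3 other mature sequences (miR-6922-5p, miR-6993-5p and miR-7008-5p), and that of miR-686 with miR-7231-3p. The 9 tested sequences ranged from 33.3% to 75% in G and C, with miR-705 at the top and G at 70% of its bases. The 15 sequences of names that were not tested ranged from 36.4% to 81.0%.

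The name miR-708 was taken as the 5p arm because its probe target precedes that of miR-708* on the strand of the gene. miR-689, miR-696, miR-709, miR-712, miR-712*, miR-714 and miR-720 were tested and are given by name only.

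Each name had 20 spots per array, as 4 probes of 5 spots for 34 names and as 2 probes of 10 spots for 4 names (miR-689, miR-690, miR-709 and miR-720). The probes of a name form a ladder. Their targets share 1 end and grow by 1 base from probe to probe, over a range of 10 to 21 bases in all. For all 94 probes with coordinates and a RefSeq strand, the shared end was the 3′ end of the miRNA. A ladder therefore reads the 3′ part of an RNA first. The longest target of miR-721, 15 bases, begins at base 7 of the mature sequence if its shared end is the last base of that sequence, and that of miR-705, 13 bases, at base 8. The files give no genome position for miR-696, miR-712, miR-712* and miR-714, and place the other 34 names in build mm9.

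The 4 arrays lay on 1 slide and were read in 1 scan. The siLin28a arrays were brighter. The 75th percentile of signal used for scaling was 226 and 220 with siGFP, against 248 and 265 with siLin28a, and siLin28a replicate 2 was the brightest on this measure. All 8 listed embryonic stem cell markers of the miR-290-295 cluster were detected on all 4 arrays. Their summed total signals, not scaled between arrays, were 59874 to 60155 for siGFP and 66496 to 68970 for siLin28a, without overlap. Of the 5 markers of primed pluripotent cells (miR-302a, b, c and d and miR-367), 4 were detected on no array, with summed signals of 12.3 to 27.6 for siGFP and 20.0 to 42.9 for siLin28a. The 3 muscle markers and the liver marker were detected on no array. Some fibroblast, neural and blood markers were detected too. Of those on the array, 2 of 4 fibroblast, 3 of 4 neural and 2 of 3 blood markers were detected on all 4 arrays. Their summed signals ran from 93.0 to 385, in ranges that overlapped between the groups. The part of any of these in the values below was not tested.

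Feature Extraction, the scanner's software, called 18 of the 38 names detected on all 4 arrays, 2 on some arrays and 18 on none. The share detected on all arrays was 47.4%, beside 42.2% of the 529 other mouse names and 30.9% of the 81 other mouse names numbered 600 or more. These shares are a description of the array. The total gene signal, which the software sums over a miRNA's probes without scaling between arrays, ran from -7.27 to 27666 over the 38 names. Brightness depends on the probes as well as on the RNA, so signals of different names are not set against each other as amounts.

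**Figure D1:**
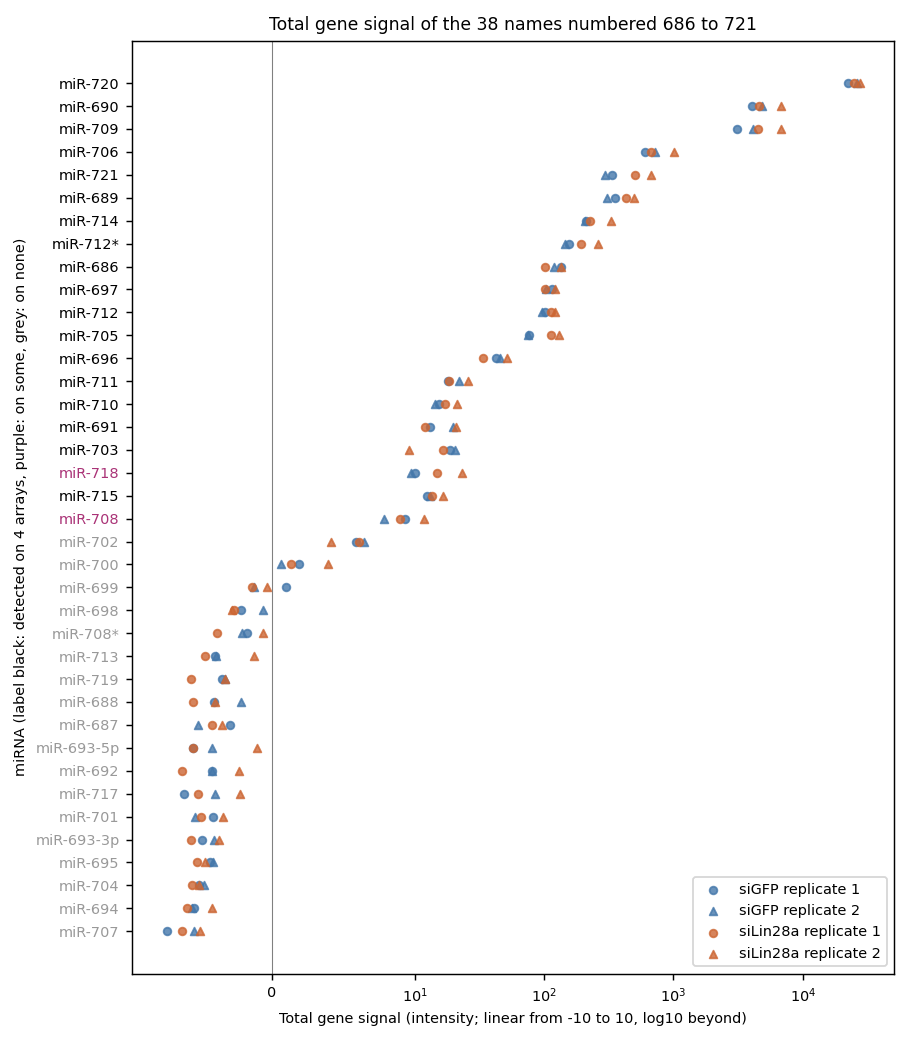
Total gene signal (intensity, linear near 0 and logarithmic beyond) of the 38 names on each of the 4 arrays, ordered by their mean. Colours mark the groups, shapes the replicates, and label colours whether a name was detected on all 4 arrays (18 names), on some (2) or on none (18); the undetected names lie at or below 6.46.

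The total gene signal of miR-720 was 22572 and 26343 with siGFP and 25021 and 27666 with siLin28a. miR-690 had 4044 and 4884 with siGFP and 4565 and 6792 with siLin28a. miR-709 had 3098 and 4092 with siGFP and 4472 and 6852 with siLin28a. On this unscaled measure the groups overlapped for miR-720 and miR-690 but not for miR-709, whose lowest siLin28a array lay above its highest siGFP array. The probe target of miR-720 lies on chromosome 3 at 88920532 to 88920543, that of miR-690 on chromosome 16 at 28600026 to 28600041 and that of miR-709 on chromosome 8 at 86610073 to 86610084. Mir690 lies within Fgf12 and Mir709 within Rfx1, a gene for a DNA-binding factor, in the RefSeq gene table of GRCm38.p6. Here and below, a miRNA is said to lie within a gene when their bounds overlap, and strand was not compared. The gene table does not say whether such miRNAs lie in exons or introns.

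A further 10 names were detected on all arrays and bright enough on several probes to be tested. Their mean total gene signals with siGFP ran from 14.7 ± 0.743 (SD, n = 2) for miR-710 to 658 ± 86.6 (SD, n = 2) for miR-706. The remaining 3 tested names, miR-696, miR-703 and miR-711, rested on 1 probe each. In all, 16 of the 38 names entered the comparison of groups through a probe that stood well above background in both replicates of siGFP, of siLin28a or of each. Each of them was well above background on at least 1 array of each group. At least 1 usable probe of miR-703, miR-710 and miR-712 lay at the floor on some arrays, so their differences depend on it.

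siLin28a was compared with siGFP to ask which of these RNAs changed when LIN28A was reduced. None of the 16 passed the test. The largest differences were those of miR-721, which was 1.59-fold as high with siLin28a, and of miR-703, which was 1.67-fold as high with siGFP with 1 array at the floor. Values are log2 of the signal after each array was divided by its 75th percentile, with a floor at -3.40, and differences are siLin28a minus siGFP. With limma (two-sided, Benjamini-Hochberg adjustment over all 231 miRNAs tested), 0 of the 16 were called higher and 0 lower, at adjusted p-values from 0.159 to 0.907. Over all tested miRNAs 2 were called higher (0.866%), let-7a and let-7f, and 0 lower (0%). For both of these, each siGFP value lay at the floor, with no spread between the arrays, so their differences depend on it. At an unadjusted p below 0.05, 2 of the 16 were higher and 0 lower, beside 13.4% and 11.3% of all tested miRNAs. The groups did not overlap for 6 of the 16 that were higher with siLin28a and 5 that were lower. These are 37.5% and 31.2% of the 16, near the 30.7% in each direction, or 61.5% in either, over all 231. Among the 6, miR-710 entered the test only through siLin28a. The median difference of the 16 was 0.08, beside 0.00 over all 231 and 0.21 over the 21 tested names numbered 600 or more outside the range.

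With the scaling taken over all probes, the median of all miRNAs shifted to -0.16 and the split without overlap became 3 higher and 7 lower of 16, beside 14.3% and 50.2% of all 231. With no scaling it shifted to 0.19 and the split became 8 higher and 1 lower of 16, beside 48.5% and 10.8% of all 231. The split among these names thus moved with that of the whole array. Their own median was -0.071 with the scaling over all probes and 0.26 with no scaling, beside -0.16 and 0.19 over all 231. It was -0.048 without siLin28a replicate 2 and 0.19 without siLin28a replicate 1, beside -0.0032 and 0.00 over all tested. Its sign is thus not settled.

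**Figure D2:**
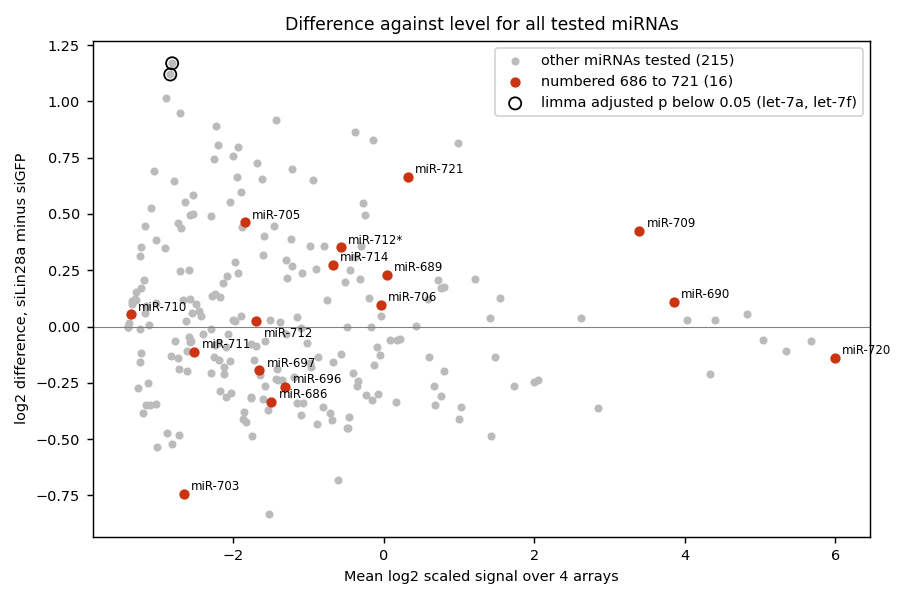
Difference between siLin28a and siGFP (log2) against mean log2 scaled signal over the 4 arrays, for 231 tested miRNAs, with the 16 from miR-686 to miR-721 in red and the 2 miRNAs called by limma circled. The red points lie between -0.74 (miR-703) and 0.67 (miR-721), within the range of the other miRNAs.

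miR-721 lies within Cux1, a gene for a homeodomain transcription factor, with its longest probe target on chromosome 5 at 136851647 to 136851661. On the log2 scale it stood at 0.10 and -0.12 with siGFP and at 0.52 and 0.79 with siLin28a. Both siLin28a arrays lay above both siGFP arrays, and the gap between groups exceeded the gap between replicates in each group. The difference was 0.67 (SE 0.14, 95% interval of the fit 0.25 to 1.08, limma adjusted p = 0.159, n = 2 per group). That interval is not adjusted for the number of miRNAs. Before scaling, its total gene signal was 335 and 294 with siGFP against 506 and 664 with siLin28a. With 1 array left out the difference ranged from 0.53 to 0.80. With the authors' deposited table of unscaled totals as input it was 0.88 and passed (limma adjusted p = 0.0415). That table had a median difference of 0.22 over all 264 miRNAs, with 16 called higher. Without the filter on dim probes, 40 of 577 names were called higher and 8 lower. There miR-721 was at 0.67 (SE 0.15) and passed (limma adjusted p = 0.000425). Its difference and SE were thus close to those of the main comparison. The fit without the filter had infinite prior degrees of freedom, beside 1.64 in the main comparison, so this p-value is not stronger evidence. Over all alternatives the adjusted p ranged from 0.000425 to 0.481.

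The miRNAs that share the seed of miR-721 and were tested had differences of 0.04 (SE 0.09) for miR-130a, -0.30 (SE 0.09) for miR-130b and -0.06 (SE 0.12) for miR-301a, none of them called. They were looked up for their sequence, after the values were seen, and the difference between them and miR-721 was not tested.

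miR-705 lies within Rab11fip5, a gene of endosome recycling, with its longest target on chromosome 6 at 85286335 to 85286347. Its log2 scaled signal was -2.05 and -2.12 with siGFP and -1.66 and -1.58 with siLin28a. The arrays of a group lay close together and the groups did not overlap. The difference was 0.46 (SE 0.12, 95% interval 0.12 to 0.81, limma adjusted p = 0.159, n = 2 per group). It was -0.011 with the normexp background correction, run with an offset of 50. Over all alternatives the limma adjusted p ranged from 0.0411 to 0.995. The lowest was that without the filter on dim probes, with its infinite prior degrees of freedom.

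miR-712 and miR-712* are opposite arms of 1 annotated hairpin, and the files give neither a genome position. miR-712* had log2 scaled signals of -0.68 and -0.82 with siGFP and -0.55 and -0.25 with siLin28a, without overlap. Its difference was 0.35 (SE 0.14, limma adjusted p = 0.221), and 0.21 without siLin28a replicate 2. miR-712 had -1.65 and -1.77 with siGFP and -1.69 and -1.68 with siLin28a, and here the groups overlapped. Its difference was 0.02 (SE 0.12, limma adjusted p = 0.907), and its sign changed in 7 of 17 alternatives. The difference between the arms was not tested.

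miR-714, also without a position, had -0.77 and -0.86 with siGFP and -0.75 and -0.32 with siLin28a. The lower siLin28a array lay 0.014 above the nearest siGFP array, so the lack of overlap was marginal. Its difference was 0.28 (SE 0.18, limma adjusted p = 0.370), and 0.061 without siLin28a replicate 2. miR-689, with its longest target on chromosome 1 at 169270598 to 169270610, had 0.04 and -0.20 with siGFP and 0.11 and 0.19 with siLin28a. Its difference was 0.23 (SE 0.11, limma adjusted p = 0.278), about as large as the gap of 0.24 between its siGFP arrays. It was 0.35 without siGFP replicate 1 and 0.13 without siGFP replicate 2. miR-710, the sixth name without overlap, lay near the floor with values from -3.40 to -3.31, and its difference of 0.05 (SE 0.03) was 0.16 with no floor. It was 0.19 without siGFP replicate 1 and 0.029 without siLin28a replicate 2. The usable probes of miR-710 stood well above background in both replicates of siLin28a but not of siGFP. It thus entered the test only through the group where it was higher, so its lack of overlap is not a separate result. Its longest target is on chromosome 8 at 66993198 to 66993211.

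miR-709 had log2 scaled signals of 3.001 and 3.366 with siGFP and 3.359 and 3.858 with siLin28a. After scaling, the lower siLin28a array and the higher siGFP array overlapped. The difference was 0.43 (SE 0.24, 95% interval -0.253 to 1.104, limma adjusted p = 0.321, n = 2 per group). It was 0.25 without siGFP replicate 1, 0.63 without siGFP replicate 2, 0.68 without siLin28a replicate 1 and 0.18 without siLin28a replicate 2, so each array moves it. Between arrays of the same replicate number it was 0.36 and 0.49. With a block for replicate number its SE was 0.095 (limma adjusted p = 0.087), though nothing says that the numbers pair the samples. miR-690 had 3.68 and 3.92 with siGFP and 3.68 and 4.14 with siLin28a, and miR-706, within the kinase gene Wnk1, had -0.19 and 0.01 with siGFP and -0.24 and 0.26 with siLin28a. In all 3 names replicate 2 was the brighter array in both groups. The differences of miR-690 (0.11, SE 0.20) and miR-706 (0.10, SE 0.21) were smaller than the spread between replicates, and both turned negative without siLin28a replicate 2. The longest target of miR-706 is on chromosome 6 at 119984308 to 119984326.

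**Figure D3:**
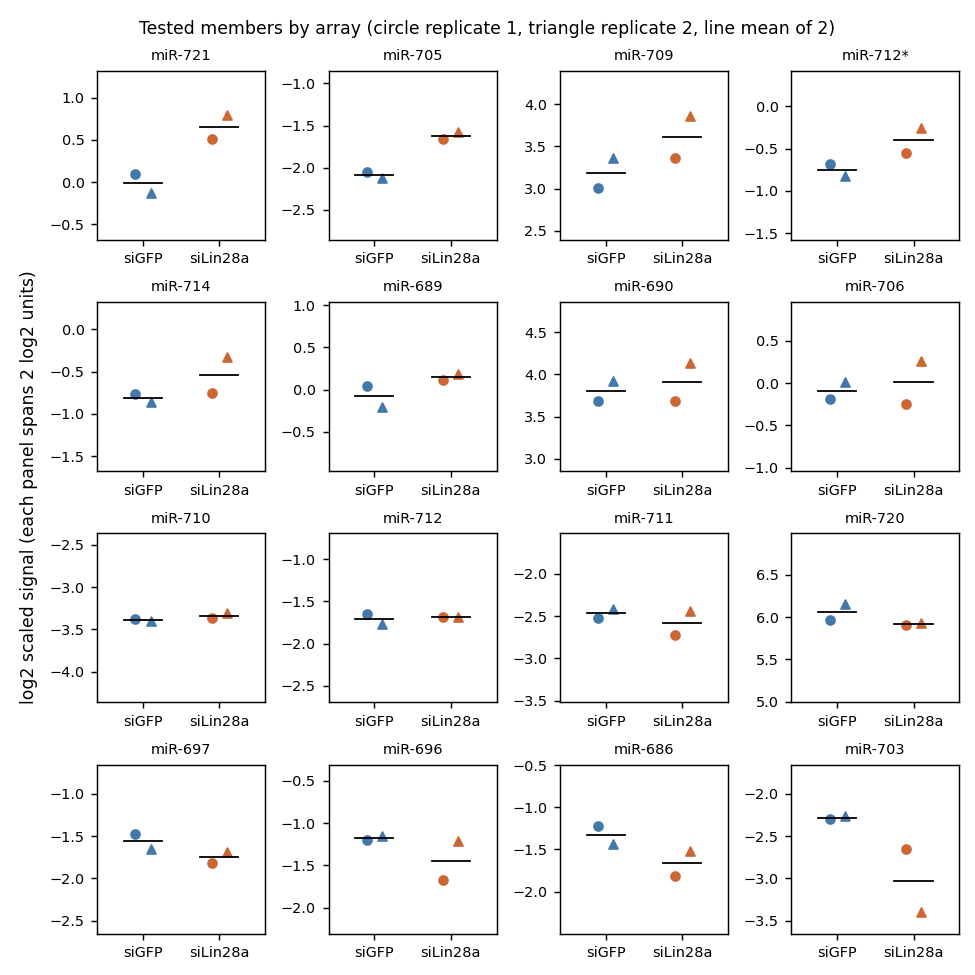
Log2 scaled signal of the 16 tested names on each array, with circles for replicate 1, triangles for replicate 2 and lines for the mean of 2, each panel spanning 2 log2 units. Both siLin28a points lie above both siGFP points for miR-721, miR-705, miR-712*, miR-714, miR-689 and miR-710, and below them for miR-703, miR-686, miR-696, miR-697 and miR-720.

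On the lower side, miR-703 lies within Cfap299, with its longest target on chromosome 5 at 98904635 to 98904653. Its log2 scaled signal was -2.30 and -2.27 with siGFP and -2.65 and -3.40 with siLin28a, the last at the floor. The siGFP arrays lay close together, while the siLin28a arrays were apart by about as much as the groups. The difference was -0.74 (SE 0.29, 95% interval -1.57 to 0.08, limma adjusted p = 0.211, n = 2 per group). It was -0.37 without siLin28a replicate 2 and -1.11 without siLin28a replicate 1, where the adjusted p was lowest among the alternatives at 0.0547. It was -0.89 with no floor, -0.11 with normexp and -0.19 with no filter on dim probes. miR-703 had the same order of arrays in its unscaled totals, 18.7 and 20.3 with siGFP against 16.3 and 9.57 with siLin28a, on arrays that were brighter overall with siLin28a.

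miR-686 lies within Psmb5, a proteasome subunit gene, with its longest target on chromosome 14 at 55235583 to 55235597. It had -1.23 and -1.43 with siGFP and -1.81 and -1.52 with siLin28a. The groups did not overlap, and the difference was -0.33 (SE 0.17, limma adjusted p = 0.283). It was -0.19 without siLin28a replicate 1. miR-697 lies within Sf3a3, a splicing factor gene, with its longest target on chromosome 4 at 124409018 to 124409032. It had -1.47 and -1.65 with siGFP and -1.81 and -1.69 with siLin28a, and a difference of -0.19 (SE 0.14, limma adjusted p = 0.385). It was -0.10 without siGFP replicate 1 and -0.13 without siLin28a replicate 1. The nearest arrays of the groups were 0.04 apart. miR-696, without a position, had -1.19 and -1.16 with siGFP and -1.67 and -1.21 with siLin28a. Its difference of -0.27 (SE 0.20, limma adjusted p = 0.404) was -0.017 without siLin28a replicate 1, -0.50 without siLin28a replicate 2 and -0.16 without siGFP replicate 1.

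miR-720 had log2 scaled signals of 5.97 and 6.15 with siGFP and 5.91 and 5.93 with siLin28a. The groups did not overlap after scaling, though they did before it. The difference was -0.14 (SE 0.10, 95% interval -0.44 to 0.16, limma adjusted p = 0.404, n = 2 per group), and it was 0.064 with no scaling between arrays. It was -0.030 without siGFP replicate 2 and -0.23 without siGFP replicate 1. miR-711 lies within the collagen gene Col7a1, with its longest target on chromosome 9 at 108872021 to 108872036. It had -2.52 and -2.41 with siGFP and -2.72 and -2.44 with siLin28a. Its groups overlapped, with a difference of -0.11 (SE 0.14, limma adjusted p = 0.624).

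The probes of a name were then compared with each other in their differences between groups. Of 13 tested names with several usable probes, 12 had probes of 1 sign, and miR-712 had 2 above 0 and 1 below. The spread between the probes of a name was 0.08 at the median and ranged from 0.03 for miR-709 to 0.38 for miR-714. The 4 probes of miR-721 gave 0.62, 0.67, 0.68 and 0.69 from the shortest to the longest target. The 4 probes of miR-705 gave 0.55, 0.51, 0.45 and 0.34 in the same order, all above 0 but lower with each added base. The 3 usable probes of miR-714, whose target lengths the files do not give, gave 0.49, 0.22 and 0.11. Probes of a name share its RNA and the array, so agreement between them is no replicate of the samples.

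**Figure D4:**
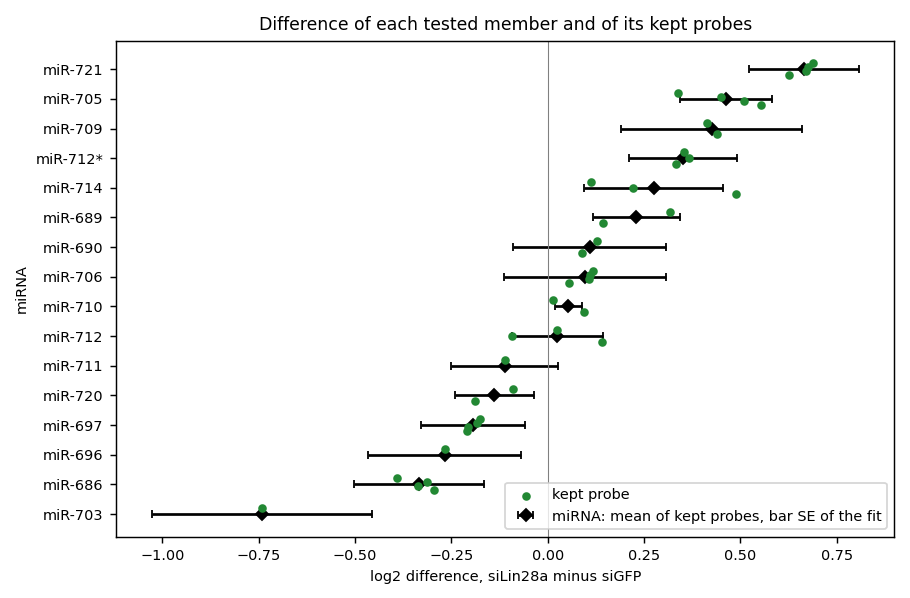
Difference between siLin28a and siGFP (log2) of the 16 tested names (diamonds, with bars of 1 SE of the fit) and of each of their usable probes (green points). The probes of miR-721 lie between 0.62 and 0.69, those of miR-714 between 0.11 and 0.49, and miR-696, miR-703 and miR-711 have 1 usable probe each.

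How far down a ladder signal reached also differed. Of the 144 probes of the 38 names, 39 were well above background on all arrays and 92 on none. Every probe was usable for 9 names: miR-686, miR-689, miR-690, miR-697, miR-705, miR-706, miR-709, miR-720 and miR-721. In miR-703 only the probe with the 19-base target was usable, with mean spot signals of 45.8 and 45.6 for siGFP and 39.4 and 20.6 for siLin28a. Its other probes, with targets of 16 to 18 bases, were not well above background on any array. In miR-711 only the 16-base target was usable, and in miR-710 only those of 13 and 14 bases. For miR-691 the probe with the 15-base target was well above background on both replicate 2 arrays and on neither replicate 1 array, so it did not enter the test.

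Beyond the tested names, 4 were called detected on at least 1 array. miR-691, which lies within Robo2, was detected on all 4 arrays, with total gene signals of 13.0 and 19.6 for siGFP and 11.9 and 20.9 for siLin28a. In both groups replicate 2 was the higher. The last 12 bases of its sequence also occur in miR-7215-3p, the only such case among the 24 sequences. miR-715 was detected on all 4 arrays, at 12.5 and 13.1 for siGFP and 13.6 and 16.5 for siLin28a. Its longest target is on chromosome 17 at 39981103 to 39981115.

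miR-718, within the signalling kinase gene Irak1 on chromosome X, was called detected in both siLin28a replicates but in neither of siGFP. It was the only name of the 38 with that pattern, beside 13 of the 529 other mouse names, and 0 of either set had the reverse. Its total gene signals were 10.04 and 9.735 in siGFP, against 14.9 and 22.9 in siLin28a. The group means were 9.89 ± 0.218 and 18.9 ± 5.69 (SD, n = 2), unscaled, on arrays that were brighter overall with siLin28a. The detection calls rest on the same spots as these signals, so the gap between the groups is not a further result. No probe of it stood well above background in both replicates of a group, so it has no test. Its longest target is at 71269196 to 71269208.

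miR-708, within the cell adhesion gene Tenm4, was detected on 1 array of each group, at 9.27 and 7.83 for siGFP and 8.97 and 11.7 for siLin28a. The groups overlapped. Its star strand miR-708* had signals from -3.80 to -0.60 and was not detected. The targets of the 2 arms lie on chromosome 7 at 103397968 to 103397982 and at 103398011 to 103398027.

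The 18 names detected on no array were miR-687, miR-688, miR-692, miR-693-3p, miR-693-5p, miR-694, miR-695, miR-698, miR-699, miR-700, miR-701, miR-702, miR-704, miR-707, miR-708*, miR-713, miR-717 and miR-719. Their total gene signals ran from -7.27 to 6.46, and a value below 0 means a signal under the fitted background. miR-702 was the highest of them in both groups, at 5.86 and 6.46 for siGFP and 6.09 and 4.16 for siLin28a. These names were not detectable at this signal over background, which does not show that the RNAs are absent. Some lie in genes well known in other settings: miR-687 within the tumour suppressor gene Rb1, miR-693 within Xpo5, the export factor for miRNA precursors, miR-702 within Plod3 and miR-717 within Gpc3.

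Of 30 miRNA genes of this number range in the RefSeq gene table, 25 overlap a protein-coding gene on either strand and 3 overlap no other listed gene. Hairpin sequences were at hand for 24 of these genes. The letters GGAG, read on the RNA strand anywhere in the hairpin, occur in 14 of the 24 (58.3%) and in 447 of all 1005 mouse hairpins in the table (44.5%). The listed hairpins of this range are longer, with a median of 109 bases beside 79. Of the names without overlap, Mir705 and Mir710 hold the letters on the higher side and Mir697 on the lower, while Mir721, Mir686 and Mir703 do not hold them. For miR-689, miR-696, miR-712*, miR-714 and miR-720 no hairpin sequence was at hand. Mir690 and Mir711, whose groups overlapped, hold the letters too. A match of 4 letters is a description and does not show binding by LIN28A.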

How the data were processed

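The values in the deposited scanner files are linear intensity. The software was Agilent Feature Extraction, in version 9.5.1.1 per the file headers and 9.5.3.1 per the submitters' processing notes. The processed intensity is the spot mean minus a background surface fitted within the array. The authors' deposited table holds the total gene signal as intensity, with values at or below 0 written as 0. Where the scanner total was above 10, 100% of table entries differed from it by at most 5%. Its column medians were 4.7 and 4.7 (siGFP) and 6.3 and 9.1 (siLin28a), and the table is neither logged, centred nor scaled between arrays.

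Control spots and outlier spots (3.21% to 4.32% of 11540 per array) were left out, and no spot was saturated. Spots were averaged per probe. A probe was well above background when at least 50% of its spots were. Arrays were scaled to the 75th percentile of the 425 probes that passed on all 4 arrays and floored at 0.0948. Probes that passed in both replicates of a group were kept (477 of 1712) and averaged to 231 miRNAs. Groups were compared with limma 3.58.1 (R 4.3.3, eBayes with a trend, 2 residual and 1.64 prior degrees of freedom), with a threshold of 0.05 on the adjusted p. The steps were tested on simulated data to check that known changes were estimated without large bias. How often changes of the size seen here would be called is not given. The number of arrays limits the precision.

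The names, lists and alternatives were chosen with earlier results of these data known. Every tested or detected name is described, and miR-130a, miR-130b and miR-301a were added afterwards. Alternatives changed the scaling, background correction, filter, floor, outlier spots, summary and model, or left out 1 array.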

Additional observations from a re-analysis of the deposited data

How the results depend on the processing

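For the 16 tested names, 271 differences were computed under 17 alternatives. Of these, 241 kept their direction and side of the threshold, 25 changed sign, 5 passed the threshold and 0 lost it. miR-686, miR-689, miR-696, miR-703, miR-709, miR-712*, miR-714 and miR-721 never changed sign. With the scaling over all probes, miR-690 was at -0.066, miR-706 at -0.077, miR-710 at -0.0090 and miR-712 at -0.15, 0 miRNAs were called higher over the array, and 3 of the 16 were higher without overlap, beside 14.3% of all 231. With no scaling, miR-697 was at 0.0091, miR-711 at 0.092 and miR-720 at 0.064, and 1 name was lower without overlap, beside 10.8% of all 231. With quantile normalization, miR-710 was at -0.013 and miR-712 at -0.065. With normexp, miR-705 was at -0.011, miR-710 at -0.0081, miR-712 at -0.083 and miR-720 at 0.036, and 0 miRNAs were called. With no filter on dim probes, all 577 names on the array entered, these 38 among them. Of the 577, 40 were called higher and 8 lower. Of the 38, 4 were called higher: miR-705 (0.46), miR-709 (0.43), miR-710 (0.027) and miR-721 (0.67). The prior degrees of freedom were then infinite, and miR-710 passed with a difference near 0. With probes well above background on all 4 arrays, miR-712 was at -0.033 and 0 miRNAs were called. Without the floor 8 were called higher. With outlier spots kept, miR-710 was at -0.035. With the total gene signal, 8 miRNAs were called higher and miR-712 was at -0.034. With the authors' deposited table, unscaled, 16 miRNAs were called higher, among them 1 of these names (miR-721 at 0.88), 10 of 19 names were higher and 1 lower without overlap, beside 50% and 7.2% of all 264, their median was 0.33 beside 0.22 over all 264, and miR-697 was at 0.023, miR-711 at 0.13 and miR-720 at 0.11. With the median over kept probes, miR-712 was at -0.092. The cause of these changes was not tested.

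With 1 array left out, the lone array of a group is assumed to vary like the other group. The count called higher over the array then ranged from 0 to 13, that of the 38 names from 0 to 1 (miR-718, at 0.04 without siLin28a replicate 1), names higher without overlap from 6 to 11 beside 36.5% to 41.8% of all tested, and names lower from 5 to 7 beside 33.8% to 43.3%. Their median ranged from -0.048 to 0.19. miR-690 was at -0.0091 without siGFP replicate 1, -0.12 without siLin28a replicate 2 and 0.34 without siLin28a replicate 1. miR-706 was at -0.15 without siLin28a replicate 2 and 0.35 without siLin28a replicate 1. miR-711 was at 0.016 without siLin28a replicate 1 and -0.25 without siLin28a replicate 2, and miR-712 at -0.015 without siGFP replicate 2. Replicate numbers are shared between groups and go with position on the slide, and nothing says that they pair the samples. Deviations of same-numbered arrays had a correlation of 0.71 over 231 miRNAs. With the replicate block 2 miRNAs were called higher, 0 lower and 0 of these names, as without it. By Feature Extraction's detection flag 19 names were detected on both arrays of a group, as with any spot well above background, beside 15 with all spots and 16 as reported.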
